A study of Mus musculus with 4 samples.

Results

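The major histocompatibility complex (MHC) genes of the mouse and the genes that load peptides onto their products were followed by cell type in 4 single-cell libraries of mouse skin. The members were chosen by symbol: every gene whose name begins with H2-, and Cd74, Ciita, B2m, Tap1, Tap2, Tapbp, Psmb8, Psmb9, Psmb10, Nlrc5 and Ctss. This gave 45 of the 32285 genes in the files. By role, 12 act with MHC class II, 32 with class I, and H2-Ke6 lies in the complex but is not an antigen presentation gene by function. Of the 45, 28 had at least 1000 UMIs (unique molecular identifiers, each 1 captured transcript) over the cells kept, 12 had fewer, and 5 (H2-M1 and 4 H2-M10 genes) had none.

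The skin came from the neck and ear of female C57BL/6J mice aged 6 to 8 weeks, with 3 mice pooled into each library and 1 library per group. In the MC903 group, 100 µL of a solution of the vitamin D analogue calcipotriol (MC903, 1 nmol, in ethanol) was put on the skin daily for 9 days. In both oxazolone groups the hapten oxazolone was given once at 3% and, from day 7 on, at 1.0% every other day, in acetone and mineral oil, and skin was taken at day 16 or at day 10. The control group was untreated, and no library of skin given solvent alone was analysed here. All groups share shaving of the neck, enzymatic digestion with a collagenase meant to release fibroblasts, and removal of dead cells. Pooling leaves no replicate, so no difference between libraries was tested; each is a difference between single libraries. Intervals are 95% and cover counting error only.

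After filtering, 3714 cells of MC903 skin, 7390 of oxazolone day 16 skin, 7723 of oxazolone day 10 skin and 7224 of untreated skin remained, with median depths of 14369, 8836, 11122 and 10136 UMIs per cell in that order. The cells fell into 50 clusters, made and named without any member gene, and 22 classes that are called by their markers (for example macrophage-like). Keratinocyte-like, hair follicle-like, sebocyte-like and fibroblast-like classes were found, as the label skin implies. Fewer than 50 cells of a class in a library were not used for ratios, which leaves out keratinocyte-like cells of MC903 and oxazolone day 16 skin (8 and 20 cells). The libraries shared 5 to 16 cell barcodes per pair, at most 0.311% of the smaller library. In the file headers, MC903 and oxazolone day 16 carry Cell Ranger 8.0.0, while 7.2.0 stands in those of oxazolone day 10 and untreated skin. The version cannot be told apart from treatment, except between MC903 and oxazolone day 16, and between oxazolone day 10 and untreated.

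MHC class I molecules, a heavy chain such as H2-K or H2-D with beta-2 microglobulin (B2m), sit on nearly all nucleated cells and show peptides from the cytosol to CD8 T cells. The immunoproteasome subunits (Psmb8, Psmb9, Psmb10) cut those peptides, the Tap1-Tap2 pump carries them into the endoplasmic reticulum, tapasin (Tapbp) helps to load them, and Nlrc5 is the transactivator of the class I genes. MHC class II molecules, such as H2-Aa with H2-Ab1, are made mainly by dendritic cells, macrophages and B cells. H2-Eb1 encodes a further class II beta chain, measured here as RNA only. Class II molecules show peptides from endosomes to CD4 T cells. Cd74 is the invariant chain that guides them there, cathepsin S (Ctss) degrades it, H2-DM exchanges its last fragment for peptide, H2-O restrains H2-DM, and Ciita is the class II transactivator. Interferon gamma is a well known inducer of both sets.

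The promoters of the members whose levels the results turn on are shown first, since genes of each set were measured together throughout. Each window runs from 250 bases before to 50 bases after the annotated start (RefSeq, GRCm38.p6), 5′ to 3′ on the gene's strand, and capitals mark CCAAT on either strand (ATTGG on the other) and, in B2m, the interferon response pattern of GAAA, 2 bases of any kind and GAAA. H2-Aa encodes the class II alpha chain and its window is chr17:34287774-34288073 on the minus strand. H2-Eb1 encodes a class II beta chain (chr17:34305617-34305916, plus strand). H2-K1 (chr17:34000298-34000597, minus strand) and H2-D1 (chr17:35262844-35263143, plus strand) encode the classical class I heavy chains. B2m (chr2:122147437-122147736, plus strand) encodes their light chain, and Tap1 (chr17:34187306-34187605, plus strand) a subunit of the peptide pump.
H2-Aa: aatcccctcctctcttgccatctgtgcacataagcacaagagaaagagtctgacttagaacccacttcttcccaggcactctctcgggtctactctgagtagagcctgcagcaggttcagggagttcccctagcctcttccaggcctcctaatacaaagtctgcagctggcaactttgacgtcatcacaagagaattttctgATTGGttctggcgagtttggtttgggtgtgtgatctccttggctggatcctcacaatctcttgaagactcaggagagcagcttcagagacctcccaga
H2-Eb1: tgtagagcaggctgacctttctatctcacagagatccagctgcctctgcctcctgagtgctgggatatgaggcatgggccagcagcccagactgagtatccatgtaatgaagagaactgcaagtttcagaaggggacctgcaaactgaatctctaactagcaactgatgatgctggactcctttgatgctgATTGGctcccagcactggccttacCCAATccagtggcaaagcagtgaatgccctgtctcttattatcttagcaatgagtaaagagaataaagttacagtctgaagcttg
H2-K1: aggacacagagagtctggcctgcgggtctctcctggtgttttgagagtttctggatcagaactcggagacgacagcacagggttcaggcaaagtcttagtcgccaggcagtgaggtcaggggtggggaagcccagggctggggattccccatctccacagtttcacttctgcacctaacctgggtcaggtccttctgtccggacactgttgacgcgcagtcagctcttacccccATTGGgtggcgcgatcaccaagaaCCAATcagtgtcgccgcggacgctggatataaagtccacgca
H2-D1: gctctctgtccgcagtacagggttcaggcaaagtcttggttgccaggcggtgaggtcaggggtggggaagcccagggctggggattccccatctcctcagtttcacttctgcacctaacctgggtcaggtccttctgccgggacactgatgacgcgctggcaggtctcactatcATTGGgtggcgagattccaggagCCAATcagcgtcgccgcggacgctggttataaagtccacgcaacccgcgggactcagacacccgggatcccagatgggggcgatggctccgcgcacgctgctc
B2m: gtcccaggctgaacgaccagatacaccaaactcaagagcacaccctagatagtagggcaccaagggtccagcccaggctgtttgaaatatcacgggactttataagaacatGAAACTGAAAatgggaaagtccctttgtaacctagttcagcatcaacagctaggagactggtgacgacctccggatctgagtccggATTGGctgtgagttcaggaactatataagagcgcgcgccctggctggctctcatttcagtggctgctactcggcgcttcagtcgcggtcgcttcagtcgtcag
Tap1: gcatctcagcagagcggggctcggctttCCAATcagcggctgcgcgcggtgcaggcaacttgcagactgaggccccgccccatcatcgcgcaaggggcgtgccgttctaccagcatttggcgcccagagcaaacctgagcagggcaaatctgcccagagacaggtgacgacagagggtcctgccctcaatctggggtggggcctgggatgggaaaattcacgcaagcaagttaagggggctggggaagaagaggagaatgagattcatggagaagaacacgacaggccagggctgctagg
Counted from the start to the motif's first base, the CCAAT letters lie at -48 in H2-Aa, -59 and -35 in H2-Eb1, -76 and -53 in H2-D1, and -53 in B2m. They lie elsewhere in the H2-K1 window shown, at -16 and 8, and in Tap1, at -222. Among the 22 described members with a window, 5 of 6 class II members and 12 of 15 class I members had CCAAT in at least 1 window. Over all genes, 37.4% of 32851 windows had it. The members are thus set beside single windows, although H2-K1 and H2-DMa have 2 windows each, and 1 of the H2-DMa windows lacked CCAAT. The GAAA pattern, searched on both strands, was present in 1 of 6 class II and 3 of 15 class I members, against 3.44% of all windows. The Tap1 window overlaps that of Psmb9 (chr17:34187281-34187580), which is transcribed the other way. These are letter matches in these windows only.

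Class II transcripts were held by few cells. The summed level of Cd74, H2-Aa, H2-Ab1 and H2-Eb1 (here the class II level) is given as CPM, the UMIs of the genes per 1000000 UMIs of the class. In dendritic-like cells it was 25950 CPM in MC903 skin (45 cells), 24040 in oxazolone day 16 skin, 26080 in oxazolone day 10 skin and 35280 in untreated skin. In macrophage-like cells it was 5874 CPM in MC903 skin, 3265 at oxazolone day 16, 13410 at oxazolone day 10 and 12980 in untreated skin. In monocyte-like cells the same 4 libraries gave 4071 (45 cells), 3012, 6529 and 6607 CPM (40 cells in untreated skin). Dendritic-like cells were thus highest in every library, and macrophage-like and monocyte-like cells were lower in MC903 and oxazolone day 16 skin than in the other libraries.

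Together these 3 classes held 90.7% of the class II UMIs of the MC903 library, 95.4% at oxazolone day 16, 97.0% at oxazolone day 10 and 91.3% in untreated skin, while they were 6.0%, 21.4%, 28.0% and 10.1% of the cells of those libraries. Dendritic-like cells alone held 55.1% in MC903 skin, 26.96% at oxazolone day 16, 26.2% at oxazolone day 10 and 86.9% in untreated skin. Macrophage-like cells held 29.95%, 60.6%, 57.1% and 3.57% in the same order. Most class II RNA therefore sat in dendritic-like cells in MC903 and untreated skin, and in macrophage-like cells in both oxazolone libraries, which had 1316 (day 16) and 1173 (day 10) such cells against 133 in MC903 and 80 in untreated skin.

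**Figure D1:**
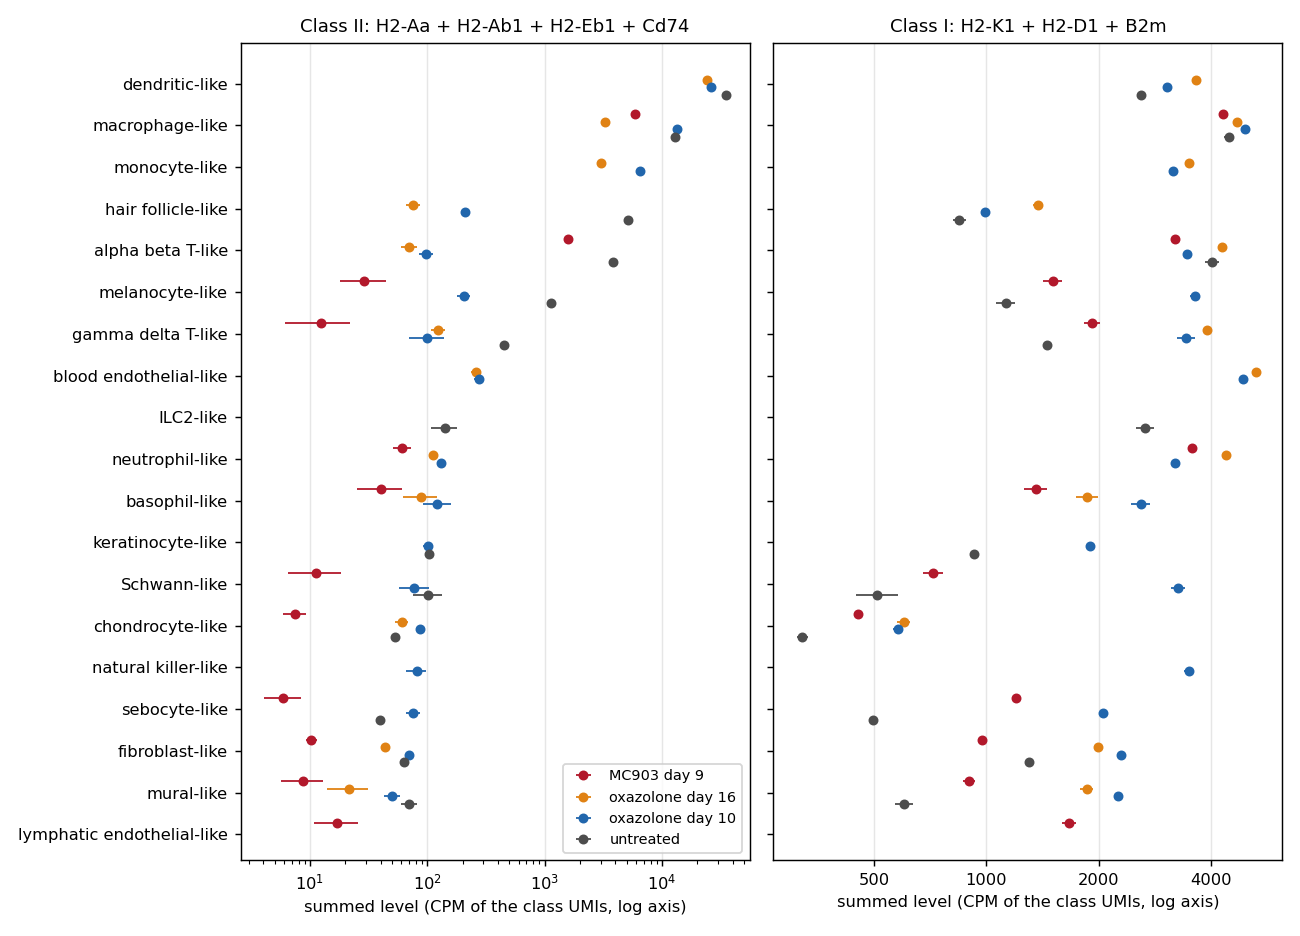
Summed class II level (left: Cd74, H2-Aa, H2-Ab1, H2-Eb1) and class I level (right: H2-K1, H2-D1, B2m) of each class of at least 50 cells, in CPM of the class UMIs on a log axis, 1 point per library with its 95% counting interval. Class II spans from about 6 CPM in sebocyte-like cells of MC903 skin (5.95) to 35280 CPM in dendritic-like cells of untreated skin, whereas class I spans from 321 CPM (chondrocyte-like, untreated) to 5280 CPM (blood endothelial-like, oxazolone day 16).

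Among macrophage-like cells, nearly all class II members were lower at oxazolone day 16 than at day 10. H2-Aa stood at 635 CPM at day 16 and 3304 at day 10, and at 1223 CPM in MC903 and 3094 in untreated skin. H2-Eb1 was at 391 CPM at day 16, 2751 at day 10, 802 in MC903 and 2834 in untreated skin. Ciita, the transactivator, was at 9.04 CPM at day 16, 112 at day 10, 17.1 in MC903 and 74.2 in untreated skin. Each of the 3 genes was lowest at oxazolone day 16 and next lowest in MC903 skin, well below both other libraries.

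Between oxazolone day 16 and day 10, the log2 ratio was -2.38 for H2-Aa (interval -2.41 to -2.35), -1.90 for H2-Ab1, -2.81 for H2-Eb1, -1.64 for Cd74 and -3.64 for Ciita (-3.83 to -3.44) in macrophage-like cells. The peptide exchange genes H2-DMa (73.6 against 265 CPM) and H2-DMb1 (58.5 against 238 CPM) differed by -1.85 and -2.03. In all, 9 of the 10 class II members that reached 30 UMIs over both libraries were at least 2-fold lower and 0 were higher, with a median log2 ratio of -1.91 against -0.45 over all genes measured. The background is wide here: 24.1% of 12607 genes were at least 2-fold lower and 6.76% higher in the same comparison. Ctss, the protease, was the exception at -0.27 (1751 CPM at day 16 and 2115 at day 10).

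Against untreated skin, oxazolone day 16 had 8 of 9 class II members at least 2-fold lower (median -1.65; 26.3% of all genes), with H2-Aa at -2.29 (-2.35 to -2.22) and Ciita at -3.04 (-3.46 to -2.59). MC903 had 4 of 8 lower (median -0.96; background 8.92%): H2-Aa at -1.34, H2-Eb1 at -1.82 and Ciita at -2.12 (-2.68 to -1.56) were past the 2-fold mark, while H2-Ab1 at -0.91 and Cd74 at -0.86 were not. Oxazolone day 10 had 0 of 9 past 2-fold in either direction against untreated skin, with 8.72% of all genes lower and 8.90% higher. H2-Aa (0.10), H2-Eb1 (-0.04) and Cd74 (-0.00) lay close to 0 there, and Ciita was at 0.60 (0.22 to 1.01). Between MC903 and oxazolone day 16, the pair with 1 header version, H2-Eb1 was 2-fold higher in MC903 (log2 ratio 1.04; 11.9% of all genes were 2-fold higher) and 8 other measured members were within 2-fold.

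**Figure D2:**
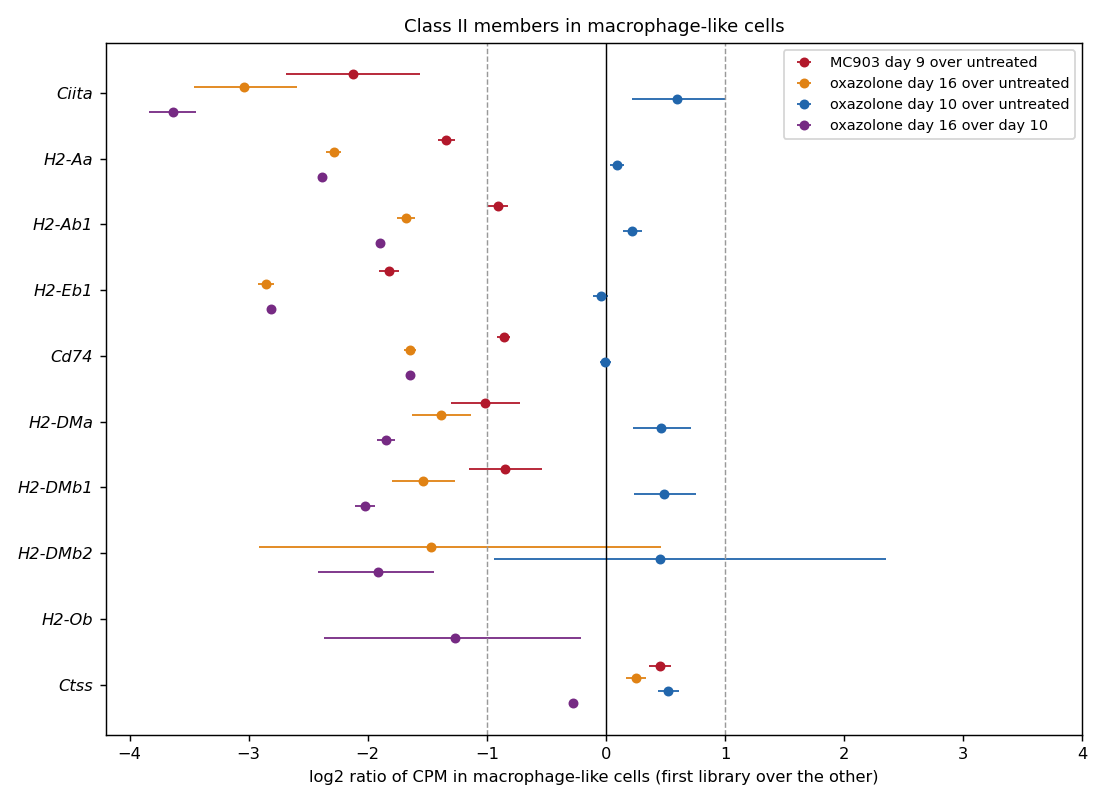
Log2 ratio of CPM in macrophage-like cells for each class II member that reached 30 UMIs over both libraries (rows), with its 95% counting interval; colours give the pair of libraries, the first named over the other. Ratios of oxazolone day 16 over day 10 lie left of -1 for all members drawn except Ctss at -0.27.

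Macrophage-like cells were not made up alike in the libraries, and the class II level differed between their clusters. The cluster led by Arg1 and Ccl24 held 60.2% of the class in MC903 skin and 82.1% at oxazolone day 16, and had a class II level of 3962 CPM in MC903, 2527 at oxazolone day 16 and 3361 at oxazolone day 10. The cluster led by Ms4a7 and C1qb held 71.2% of the class at oxazolone day 10, with 14850 CPM at day 16, 16450 at day 10 and 16220 in untreated skin (20 cells). The cluster led by Ccl8, Pf4, Folr2 and Cd163, genes of resident tissue macrophages, held 75.0% of the class in untreated skin, with 3931 CPM in MC903, 3459 at oxazolone day 16, 7224 at day 10 and 11710 in untreated skin. Within the Arg1 cluster 1 of 9 class II members was at least 2-fold lower at day 16 than at day 10, with 14.0% of all genes measured in that cluster as lower. Within the Folr2 cluster it was 5 of 8 (6.6% of all genes), and 7 of 8 against untreated skin (10.1%). The difference over the whole class thus comes with different cluster shares, and the Arg1 cluster's count past 2-fold lies near its background. The log2 ratios in the Arg1 cluster were -1.65 for Ciita, -0.98 for H2-Eb1, -0.97 for H2-DMb1, -0.77 for H2-Aa and -0.70 for H2-DMa. Cd74 was at -0.20, H2-Ab1 at -0.18 and Ctss at 0.07, and H2-DMb2 had 39 UMIs at day 16 and 0 at day 10. These clusters were chosen for this comparison after the values were seen.

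**Figure D3:**
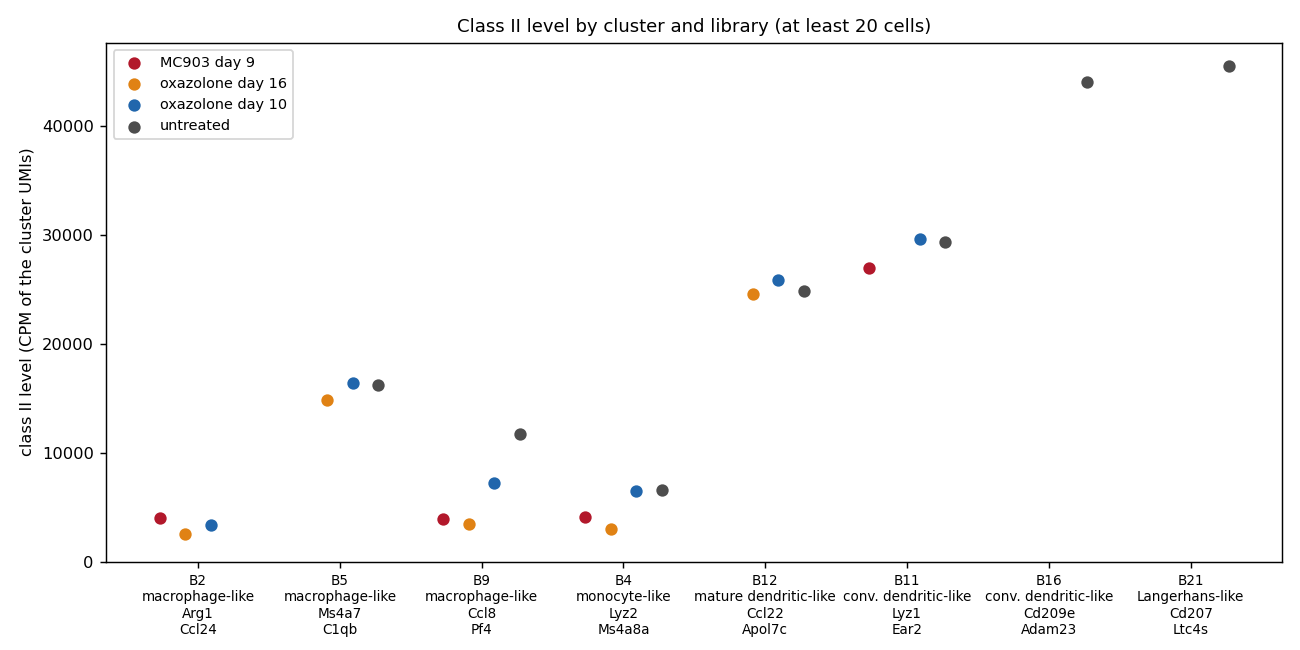
Class II level (CPM of the cluster UMIs, linear axis from 0) of each macrophage-, monocyte- and dendritic-like cluster of at least 20 cells in a library, 1 point per library. The Folr2 cluster (B9) runs from 3459 CPM at oxazolone day 16 to 11710 CPM in untreated skin, while the Ms4a7 cluster (B5) stays between 14850 and 16450 CPM in its 3 libraries.

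The share of macrophage-like cells with any class II UMI moved the same way. Thinned to 1000 UMIs per cell, these cells had at least 1 in 50.4% of cases in MC903 (interval 41.6 to 59.2) and in 53.5% in the day 16 oxazolone library (50.7 to 56.2). The share was 85.7% in the day 10 oxazolone library (83.6 to 87.7) and 87.5% in untreated skin (78.2 to 93.8). The thinning left out 16 cells at oxazolone day 16 and 5 at day 10. Fibroblast-like cells, which should lack class II, gave 1.41%, 3.70%, 6.94% and 6.51% in the same order, so the macrophage-like shares lie far above that background. Unthinned, the macrophage-like shares were 82.0%, 88.5%, 97.4% and 93.8%, beside 14.8%, 50%, 58.5% and 46.2% in fibroblast-like cells. The lists of other cell types' markers also differed in this class. The 6 neutrophil markers summed to 643 CPM in MC903, 1422 at oxazolone day 16, 279 at day 10 and 79.5 in untreated skin, where 4 of them (S100a9, Retnlg, Cxcr2, Ly6g) were at 0. The 8 conventional dendritic markers summed to 454, 136, 160 and 710 CPM in the same order, with 8, 8, 8 and 6 of them detected. The 6 monocyte markers summed to 4786, 5102, 2302 and 1809 CPM in the same order, with 6 detected in each library. The part of these lists in the class II levels was not tested.

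Class II partners outside the members and the ligands that macrophages show to T cells were counted in the same comparison. Of 10 other class II pathway genes (cathepsins, Lgmn, Ifi30, the RFX factors and the ubiquitin ligases March1 and March8), 2 were lower and 1 was higher by 2-fold at oxazolone day 16 than at day 10 in macrophage-like cells, beside 24.1% of all genes lower and 6.76% higher. Of the 7 costimulation and checkpoint ligands, 2 were higher and 1 lower. Cd274, encoding PD-L1, was at 402 CPM at day 16 and 119 at day 10 (log2 ratio 1.76, 1.69 to 1.83). Pdcd1lg2, encoding PD-L2, was at 173 and 34.02 CPM (2.35, 2.22 to 2.47). Both encode inhibitory ligands of T cells, and both values are sums over the whole class, of which the Arg1 cluster held 82.1% at day 16 and 116 of 1173 cells at day 10.

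Monocyte-like cells, 1 cluster of 191 cells at oxazolone day 16 and 738 at day 10, had 5 of 9 class II members at least 2-fold lower at day 16 (median -1.03; 14.5% of 10378 genes). Ciita stood at 18.7 CPM at day 16 and 92.3 at day 10 (log2 ratio -2.30, -2.67 to -1.95), and H2-Aa at 597 and 1511 CPM (-1.34). H2-DMa, at 151 and 215 CPM (-0.51), and Cd74, at 1430 and 2790 CPM (-0.96), were within 2-fold. Cells at 2000 CPM or more of class II were 61 of 191 at day 16 and 377 of 738 at day 10, and the other cells stood at 282 and 331 CPM. The neutrophil markers summed to 4415 CPM at day 16 and 934.5 at day 10 in this class, with 6 of 6 detected in both, and their part was not tested.

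Dendritic-like cells kept high class II levels in each library. At oxazolone day 16 against untreated skin, 1 of 12 members was at least 2-fold higher and 2 were lower (background 8.43% higher and 24.5% lower). The member that was higher was H2-Eb2, a class II beta chain gene, at 28.7 CPM at day 16 (48 UMIs) and 4.14 in untreated skin (28 UMIs; log2 ratio 2.79, 2.09 to 3.52), named after its values were seen. H2-Aa was at 5144 CPM at day 16 and 7145 in untreated skin (log2 ratio -0.47), Cd74 at 9288 and 14710 CPM (-0.66) and Ciita at 116 and 317 CPM (-1.45, -1.67 to -1.24). The other lower member was H2-Ob, a chain of H2-O, at 17.9 and 37.2 CPM (-1.05). The mature cluster led by Ccl22 and Ccr7 held 13 of 45 cells in MC903, 56 of 73 at day 16, 190 of 251 at day 10 and 39 of 608 in untreated skin, and had 24560 CPM at day 16, 25910 at day 10 and 24900 in untreated skin. Its size depends on the clustering. Under the stricter cell filter a mature cluster led by Ccl22 held 21, 26 and 5 cells at day 16, day 10 and in untreated skin. Without doublet removal it held 21, 35 and 7. A cluster led by Htr7 and Wdfy4, named conventional dendritic-like, then held 44, 165 and 34 cells (stricter filter) or 42, 160 and 33 (no doublet removal). The Cd209d cluster and the Langerhans-like cluster (marked by Cd207), which had 199 of 211 and 43 of 66 of their cells in untreated skin, stood at 44060 and 45540 CPM there. H2-DMb2, a beta chain gene of H2-DM, was at 99.2 CPM at day 16, 77.2 at day 10 and 64.9 in untreated skin.

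Plasmacytoid dendritic-like cells at oxazolone day 10, 20 cells and so too few for ratios, had 4960 CPM of class II, with 11 of the 20 at 2000 CPM or more. In the other classes of at least 50 cells, class II levels above 1000 CPM came from few cells. Hair follicle-like cells had 75.5 CPM at oxazolone day 16 and 210 at day 10, against 5082 in untreated skin. In untreated skin 25 of 255 such cells, all in the cluster led by Krt25 and Krt71 (30 cells in untreated skin), each at 2000 CPM or more, carried it: the 10% of cells with the most held 99.0% of the class II UMIs, and the other 230 cells stood at 62.0 CPM. Those 25 cells had 1991 CPM of dendritic markers against 66.0 in the other cells, and 1.93 CPM of the Langerhans gene Cd207. The name hair follicle-like is thus uncertain for them. Over all libraries, the share of cells with the leukocyte gene Ptprc was 0.232 in the Krt25 cluster. It was 0.058 in the hair follicle-like cluster led by Lgr5 and 0.071 in the one led by Krt35. Alpha beta T-like cells had 1591 CPM in MC903 skin and 3795 in untreated skin, carried by 6 of 156 and 5 of 86 cells; the remaining cells were at 26.2 and 157 CPM. The median doublet score of the 25 hair follicle-like cells was 0.0623, against 0.0082 in the other 230. The part of doublets was not tested.

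Keratinocyte-like cells had 101 CPM of class II at oxazolone day 10 and 104 in untreated skin. Fibroblast-like cells had 10.3 CPM in MC903 skin, 43.5 at oxazolone day 16, 70.3 at day 10 and 63.5 in untreated skin, an order close to that of the class II level of the whole library (922, 1522, 3652 and 3328 CPM). Their Ciita level was at most 0.77 CPM in any library. Blood endothelial-like cells stood above these at 262 CPM (oxazolone day 16) and 274 CPM (day 10), with Cd74 at 140 and 128 CPM. Ciita showed the same places as its targets: dendritic-, macrophage- and monocyte-like cells held 83.3% of its UMIs in MC903, 92.3% at oxazolone day 16, 97.0% at day 10 and 91.2% in untreated skin.

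Of the class I members, H2-K1, H2-D1 and B2m were spread over the classes compared, and in several classes oxazolone skin had higher levels than untreated skin. The class I level is the summed CPM of H2-K1, H2-D1 and B2m. Blood endothelial-like cells had 5280 CPM at oxazolone day 16 and 4869 at day 10. Macrophage-like cells had 4315 CPM in MC903, 4710 at oxazolone day 16, 4951 at day 10 and 4477 in untreated skin, close to each other in all 4 libraries. Stromal and epithelial cells were lower and moved more. Fibroblast-like cells had 972 CPM in MC903, 1987 at oxazolone day 16, 2292 at day 10 and 1299 in untreated skin. Mural-like cells, which wrap vessels, had 897, 1856, 2255 and 600 CPM in the same order.

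Mural-like cells at oxazolone day 10 had 12 of 16 class I members at least 2-fold higher than in untreated skin, against 3.64% of 10260 genes. H2-K1 was at 484 CPM at day 10 and 134 in untreated skin (log2 ratio 1.85, 1.67 to 2.04), B2m at 1213 and 304 CPM (1.99) and Psmb9 at 33.3 and 6.60 CPM (2.33, 1.53 to 3.25). At oxazolone day 16 it was 11 of 15 (5.37% of 8934 genes), from 51 cells, with B2m at 1132 CPM against 304 in untreated skin (1.90) and Psmb8 at 84.2 against 19.3 CPM (2.12). MC903 had 2 of 15 higher (3.73%), among them H2-Q4, a class Ib gene, at 53.2 against 18.8 CPM (1.496). The neutrophil markers summed to 178 CPM in MC903, 1546 at oxazolone day 16, 340 at day 10 and 0.94 in untreated skin in these cells, where Csf3r, Retnlg, Cxcr2 and Ly6g were at 0. Their part was not tested.

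Epithelial and nerve-associated classes were also compared at oxazolone day 10. Keratinocyte-like cells had 9 of 17 class I members at least 2-fold higher than in untreated skin (6.89% of 12527 genes): H2-K1 was at 652 CPM against 321 (log2 ratio 1.02), Psmb8 at 86.9 against 28.9 CPM (1.59) and Psmb9 at 57.7 against 17.4 CPM (1.73, 1.47 to 1.99). Sebocyte-like cells had 11 of 16 higher (6.36%), with H2-K1 at 760 against 149 CPM (2.35). Nlrc5 was there at 39.0 against 2.49 CPM (3.97, 3.42 to 4.55) and H2-Q7 at 71.1 against 1.18 CPM (5.92, 5.21 to 6.73). Most of this class was a cluster led by Oxtr and Akr1c18: 99 of 113 cells at day 10, 557 of 699 in untreated skin and 86 of 109 in MC903. That cluster's mean log2 marker score was 0.91 for sebocyte (3 markers seen) and 0.85 for keratinocyte (5 seen), so its name is uncertain. Schwann-like cells had 8 of 9 higher (4.57% of 5688 genes), with H2-D1 at 865 against 86.7 CPM (3.32, 2.86 to 3.81). Melanocyte-like cells had 12 of 14 higher (5.17%), with H2-K1 at 788 against 220 CPM (1.84). The neutrophil markers summed in these classes to 366 CPM at day 10 and 0.61 in untreated skin (keratinocyte-like), 251 and 1.45 (sebocyte-like), 279 and 0 (Schwann-like), and 861 and 82.7 CPM (melanocyte-like). In untreated skin Ly6g was at 0 in all 4 classes, and their part in the class I levels was not tested.

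Hair follicle-like cells differed by cluster. Over the whole class 2 of 15 class I members were at least 2-fold higher at oxazolone day 16 (6.83% of 10886 genes) and 0 of 17 at day 10 (9.29%), with H2-K1 at 351 CPM at day 10 against 234 in untreated skin. The class held other clusters in each library: the cluster led by Lgr5 and Lhx2 had 54 of 96 cells at day 16, 448 of 1093 at day 10 and 225 of 255 in untreated skin, while the cluster led by Krt35 had 436 cells at day 10 and 0 in untreated skin. Within the Lgr5 cluster 11 of 15 members were higher at day 16 (6.59% of 9394 genes) and 10 of 15 at day 10 (8.06% of 12010 genes). H2-K1 was at 621 CPM at day 16, 661 at day 10 and 158 in untreated skin there, and Psmb8 at 30.96, 52.1 and 11.6 CPM. The class I level in that cluster was 1917 CPM at day 16, 1802 at day 10 and 507.6 in untreated skin, whereas the Krt35 cluster stood at 295.8 CPM at day 10. The neutrophil markers summed over the class to 1866 CPM at day 16, 184.7 at day 10 and 1.08 in untreated skin, where S100a8, S100a9, Retnlg, Cxcr2 and Ly6g were at 0. The conventional dendritic markers summed to 4.675, 8.66 and 360 CPM in the same order, and the macrophage markers to 96.7, 36.3 and 173 CPM. The untreated class includes 30 cells of the Krt25 cluster, among them the cells with high class II and dendritic markers described above. The part of these lists in the class I levels was not tested. The Lgr5 cluster was singled out after the clusters were seen.

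MC903 skin had fewer such members. In sebocyte-like cells 8 of 15 class I members were at least 2-fold higher than in untreated skin (6.89% of 12296 genes), with H2-D1 at 351 against 110 CPM (log2 ratio 1.67) and Nlrc5 at 20.9 against 2.49 CPM (3.07, 2.52 to 3.66). Melanocyte-like cells had 5 of 12 higher (8.00%), with H2-T23, the gene of the class Ib molecule Qa-1, at 128 against 33.3 CPM (1.94). In these cells the neutrophil markers summed to 15220 CPM in MC903 (6 of 6 detected) and 82.7 in untreated skin (2 of 6), and in sebocyte-like cells to 371 and 1.45 CPM, and their part was not tested. Schwann-like cells had 0 of 4 (6.36%), and their class I level was 720 CPM against 510. Whether MC903 and oxazolone day 10 differ from untreated skin by different amounts was not tested.

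Gamma delta T-like cells had a class I level of 1922 CPM in MC903, 3905 at oxazolone day 16, 3434 at day 10 and 1453 in untreated skin (687 cells). Against untreated skin, 5 of 17 members were at least 2-fold higher in MC903 (7.07% of 9764 genes), 11 of 17 at day 16 (7.47%) and 10 of 17 at day 10 (7.57%). B2m was at 832 CPM in MC903, 2086 at day 16, 1289 at day 10 and 456 in untreated skin. Nlrc5 was at 81.0, 160, 135 and 16.4 CPM in the same order, and its log2 ratio over untreated skin was 3.28 (2.89 to 3.70) at day 16. The class had different clusters. The one led by Trdv4 and Xcl1 held 67 cells in MC903, 0 at day 16, 22 at day 10 and 625 in untreated skin, with class I levels of 1490 CPM in MC903, 3183 at day 10 and 1369 in untreated skin. The one led by Il17a and Il23r held 35, 161, 32 and 62 cells, with 2741, 3905, 3672 and 2263 CPM in the same order. Within it 8 of 16 members were past 2-fold above untreated skin at day 16 (5.14% of 6366 genes). There Nlrc5 was at 160 CPM against 58.8 in untreated skin (log2 ratio 1.44) and B2m at 2086 against 826 CPM (1.34), a smaller difference than over the whole class. The neutrophil markers summed over the class to 82.1 CPM in MC903, 616 at day 16, 146 at day 10 and 1.01 in untreated skin, where S100a9, Retnlg, Cxcr2 and Ly6g were at 0. The monocyte markers summed to 86.6, 422, 262 and 62.2 CPM, and the part of either list was not tested.

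Alpha beta T-like cells had 3198, 4279, 3453 and 4028 CPM, and 0 of 16 members were 2-fold higher over untreated skin in MC903 (6.43% of all genes), at day 16 (3.95%) or at day 10 (5.53%).

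**Figure D4:**
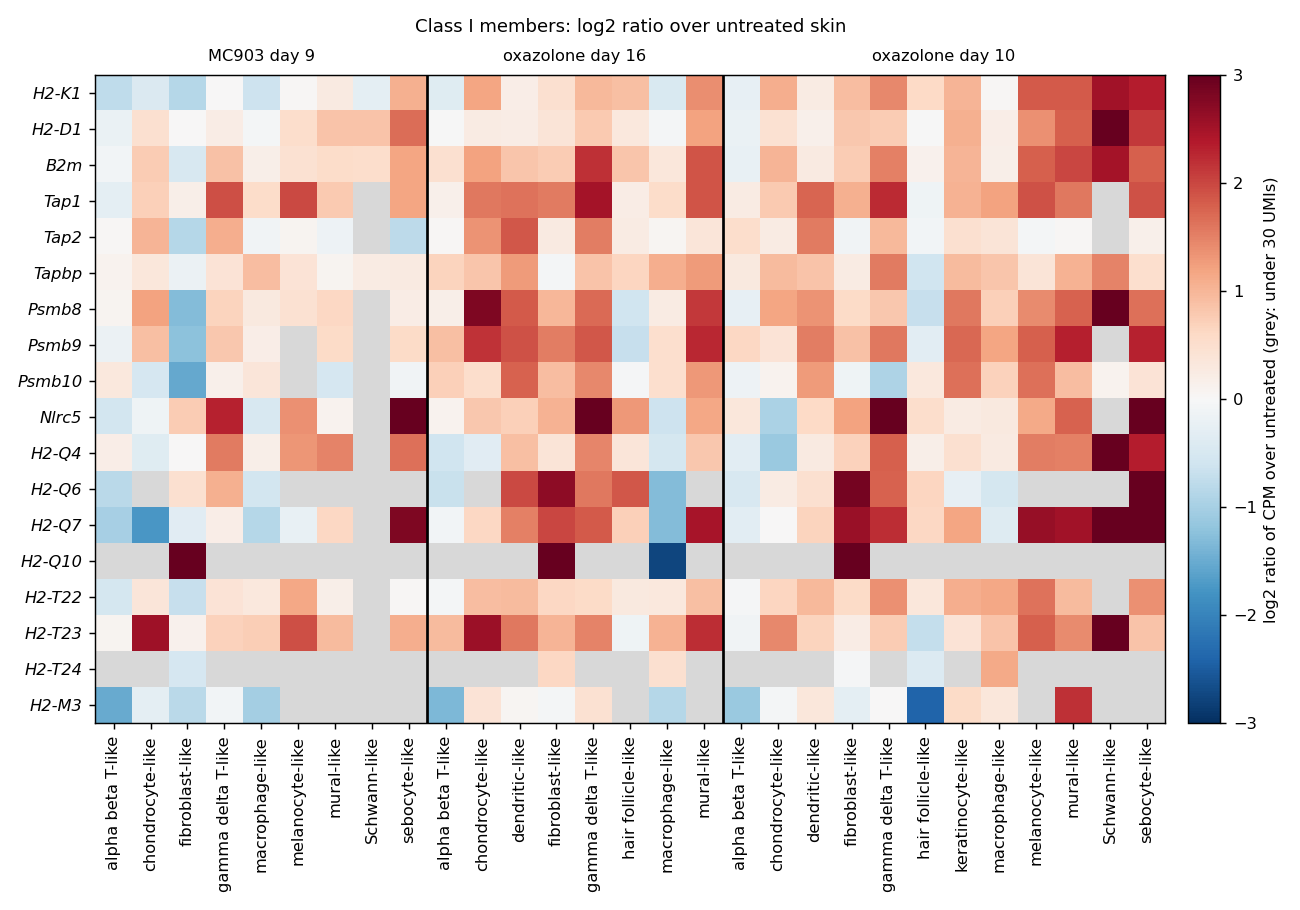
Log2 ratio of CPM over untreated skin for class I members (rows) in each class (columns), grouped by treated library; colours are capped at -3 and 3, grey marks pairs under 30 UMIs, and a count of 0 was set to 3 UMIs. The columns of mural-, sebocyte-, Schwann- and melanocyte-like cells at oxazolone day 10 hold 12 of 16, 11 of 16, 8 of 9 and 12 of 14 members at 2-fold or more, and those of alpha beta T-like cells hold 0 of 16.

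Fibroblast-like cells had 7 of 18 class I members at least 2-fold higher at oxazolone day 16 than in untreated skin (9.38% of 14261 genes) and 5 of 18 at day 10 (8.56% of 14328 genes). The classical genes were within 2-fold: H2-K1 was at 445 CPM at day 16, 601 at day 10 and 317 in untreated skin, and B2m at 1121, 1131 and 662 CPM. Genes of peptide supply were higher at day 16, with Psmb9 at 37.2 CPM at day 16, 23.6 at day 10 and 12.8 in untreated skin (log2 ratio 1.54 at day 16) and Tap1 at 34.7, 24.6 and 11.8 CPM (1.56). H2-Q10, H2-Q6 and H2-Q7 had the largest ratios over untreated skin among the H2 genes. H2-Q10 was at 5.54 CPM at day 16, 6.34 at day 10 and 0.61 in untreated skin (15 UMIs), with ratios of 3.19 (2.37 to 4.10) and 3.38 (2.57 to 4.28). H2-Q7, of the Qa-2 family, was at 31.0, 46.6 and 7.68 CPM, with ratios of 2.01 (1.76 to 2.27) at day 16 and 2.60 (2.36 to 2.85) at day 10. H2-Q6 and H2-Q7 are near-identical copies, so the split of reads between them is uncertain.

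MC903 fibroblast-like cells had 1 of 18 class I members higher (10.8% of 15211 genes) and 3 of 18 lower (10.1%) than untreated skin. The 3 lower genes were the immunoproteasome subunits: Psmb8 at 17.01 against 42.0 CPM (log2 ratio -1.30, -1.46 to -1.15), Psmb9 at 5.48 against 12.8 CPM (-1.22) and Psmb10 at 11.99 against 34.5 CPM (-1.53). The one higher was H2-Q10, at 6.502 against 0.61 CPM (3.42, 2.66 to 4.28). This gene's UMIs lay mainly in neutrophil-like cells (70.6 CPM in MC903, 40.0 at oxazolone day 16, 105 at day 10), and the 6 neutrophil markers, all detected, summed to 1925 CPM in MC903 fibroblast-like cells, 1532 at day 16 and 142 at day 10, against 4.71 in untreated ones, where Ly6g was at 0. Their part in the H2-Q10 level was not tested, in MC903 or in either oxazolone library.

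Between MC903 and oxazolone day 16, which share the header version, fibroblast-like cells had 11 of 18 class I members at least 2-fold lower in MC903 (11.0% of 14676 genes), with a median log2 ratio of -1.19 against 0.22 over all genes. H2-K1 was at 176 CPM in MC903 and 445 at day 16 (-1.34), B2m at 471 and 1121 CPM (-1.25) and Psmb9 at 5.48 and 37.2 CPM (-2.76, -3.03 to -2.51), while H2-D1, at 325 and 421 CPM, was at -0.37. Mural-like cells had 10 of 15 lower (6.14% of 9181 genes), with B2m at 445 and 1132 CPM (-1.35).

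The fibroblast-like class, too, was made of different clusters. The largest was led by Inmt and Cxcl13 in MC903 skin (76.9%), by Cxcl5 and Saa3 at oxazolone day 16 (74.3%) and day 10 (51.1%), and by Clec3b and Pi16 in untreated skin (49.95%). In the Inmt cluster the class I level was 965 CPM in MC903 and 942 in untreated skin (59 cells). In the Cxcl5 cluster it was 1401 in MC903, 2031 at day 16, 2266 at day 10 and 945 in untreated skin. In the Clec3b cluster it was 844, 1881, 1640 and 1642 CPM in the same order. Within the Cxcl5 cluster, 11 of 17 members were at least 2-fold higher at day 16 (11.2% of all genes in that cluster) and 8 of 17 at day 10 (9.21%) than in untreated skin. In the Clec3b cluster the day 10 level was close to the untreated one (32 cells at day 10). The untreated cells of the Cxcl5 cluster depend on the clustering: it held 469 of them here, but a cluster led by Cxcl5 and Saa3 held 22 under the stricter cell filter and 5 without doublet removal.

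Dendritic-like cells had higher peptide supply genes in oxazolone skin. Of 18 class I members, 9 were at least 2-fold higher and 2 lower at day 16 than in untreated skin (background 8.43% and 24.5%), and 5 were higher at day 10 (7.79% of 10908 genes). Psmb8 was at 558 CPM at day 16, 395 at day 10 and 156 in untreated skin, with a log2 ratio over untreated skin of 1.84 (1.71 to 1.97) at day 16. Tap1 was at 120, 130 and 38.7 CPM and Tap2 at 98.6, 79.0 and 27.03 CPM in the same order. In the mature cluster, the summed peptide supply level was 1644 CPM at day 16, 1146 at day 10 and 1201 in untreated skin, against 345 in the Lyz1 and Cd209c cluster of untreated skin. The mature cluster, whose size depends on the clustering as given above, was 56 of 73 cells of the class at day 16, 190 of 251 at day 10 and 39 of 608 in untreated skin. Macrophage-like cells had 0 of 16 class I members higher in MC903 than in untreated skin (11.3% of 8332 genes), 2 of 18 at day 16 (8.85%) and 4 of 18 at day 10 (8.90%).

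Neutrophil-like cells, 287 in MC903, 4192 at oxazolone day 16 and 1788 at day 10, had class I levels of 3566, 4407 and 3214 CPM. At day 16 over day 10, 5 of 18 members were at least 2-fold higher (10.0% of 11813 genes) and 3 lower (33.3%). Nlrc5 was at 173 and 58.1 CPM (log2 ratio 1.58) and Tapbp at 366 and 132 CPM (1.47). The 3 lower were class Ib genes of the Q region, H2-Q6 at 3.39 and 19.7 CPM (-2.54), H2-Q7 at 8.35 and 34.2 CPM (-2.03) and H2-Q10 at 40.0 and 105 CPM (-1.39). The neutrophil-like cluster led by the interferon-inducible genes Slfn4, Rsad2 and Ifit1, which held 747 cells at day 16 and 28 at day 10, had a class I level of 5238 and 4305 CPM, against 2772 and 3210 in the cluster led by Camp and Ltf. The Camp cluster held 68 of 4192 cells at day 16 and 1415 of 1788 at day 10, and the largest cluster at day 16, led by F10 and Il1a, held 1715 and 156. Within the F10 cluster 0 of 17 members were at least 2-fold higher at day 16 (6.16% of 8306 genes), within the Camp cluster 0 of 18 (3.81% of 8160 genes), and within the Prok2 and Ngp cluster 1 of 16 (4.98% of 6281 genes). The count over the whole class was thus not found within these 3 clusters, which were compared after the cluster shares were seen.

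Genes outside the members that interferons induce were counted beside class I. In fibroblast-like cells, 8 of 14 genes of the interferon gamma response and 8 of 9 of the type I interferon response were at least 2-fold higher at oxazolone day 16 than in untreated skin (9.38% of all genes). It was 3 of 14 and 3 of 9 at day 10 (8.56%) and 2 of 14 and 1 of 9 in MC903 (10.8%). Cxcl9, a T cell attracting chemokine, was at 159 CPM at day 16 and 2.48 in untreated fibroblast-like cells (log2 ratio 6.00, 5.64 to 6.40). Iigp1, an interferon-inducible GTPase, was at 281 and 28.1 CPM (3.32). In mural-like cells 8 of 11 interferon gamma response genes were higher at day 16 (5.37% of all genes) and 9 of 13 at day 10 (3.64%). Keratinocyte-like cells at day 10 had 5 of 11 of these genes higher and 3 lower, and 6 of 6 type I response genes higher (6.89% higher and 9.53% lower over all genes). In fibroblast-like cells of MC903 against oxazolone day 16, 8 of 14 and 7 of 9 of the list genes were at least 2-fold lower (11.0%).

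Proteasome activator genes Psme1 and Psme2, partners of class I outside the members, were at 141 and 98.1 CPM in fibroblast-like cells at oxazolone day 16, against 56.8 and 48.4 CPM in untreated skin (log2 ratios 1.31 and 1.02). In dendritic-like cells 7 of 13 interferon gamma response genes were higher at day 16 (8.43% of all genes) and 10 of 14 at day 10 (7.79%), and 5 of 7 costimulation and checkpoint ligands were higher at day 16. Cd274 was at 458 CPM at day 16 and 43.4 in untreated dendritic-like cells (3.40, 3.20 to 3.60). The mature cluster, whose size depends on the clustering, was 56 of 73 cells of this class at day 16 and 39 of 608 in untreated skin. The neutrophil markers summed in the class to 2224 CPM at day 16 and 11.1 in untreated skin, and the part of either was not tested. Interferon gamma (Ifng) itself had 168 UMIs in MC903, 368 at oxazolone day 16, 155 at day 10 and 50 in untreated skin. That was 2.45, 3.76, 1.47 and 0.61 CPM of the library UMIs in the same order. Alpha beta T-like cells held 87.5%, 90.2%, 71.6% and 68.0% of these UMIs, at 65.65, 154, 47.4 and 65.9 CPM of the class. The dissociation stress genes, a sign of handling, also differed: 9 of 9 were at least 2-fold lower at day 10 than in untreated mural-like cells (4.21% of all genes), and 6 of 9 each in keratinocyte-like (9.53%), sebocyte-like (7.09%) and fibroblast-like cells (6.88%). In melanocyte-like cells the log2 ratios of these genes at day 10 over untreated skin ran from -2.79 (Fosb) to -1.05 (Dnajb1). Their part in the class I levels was not tested.

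H2-K1 and H2-D1 did not keep 1 ratio over the libraries. Over whole libraries there were 0.617 H2-K1 UMIs per H2-D1 UMI in MC903, 0.716 at oxazolone day 16, 0.987 at day 10 and 0.977 in untreated skin. MC903 was below untreated skin in 9 of 9 classes with at least 50 cells in both, below oxazolone day 10 in 11 of 11, and below oxazolone day 16 in 7 of 8. In fibroblast-like cells the ratio was 0.541 in MC903 (interval 0.523 to 0.560), 1.06 at day 16, 1.07 at day 10 and 0.990 in untreated skin. In macrophage-like cells it was 0.894, 1.02, 1.20 and 1.33 in the same order. MC903 and oxazolone day 16, which share header version 8.0.0, both had lower whole-library ratios than oxazolone day 10 and untreated skin, which carry 7.2.0. By class, oxazolone day 16 was below day 10 in 10 of 12 and below untreated skin in 3 of 8. The part of the version was not tested. The 2 genes are close in sequence, so reads shared between them could move the ratio, and this was not tested.

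**Figure D5:**
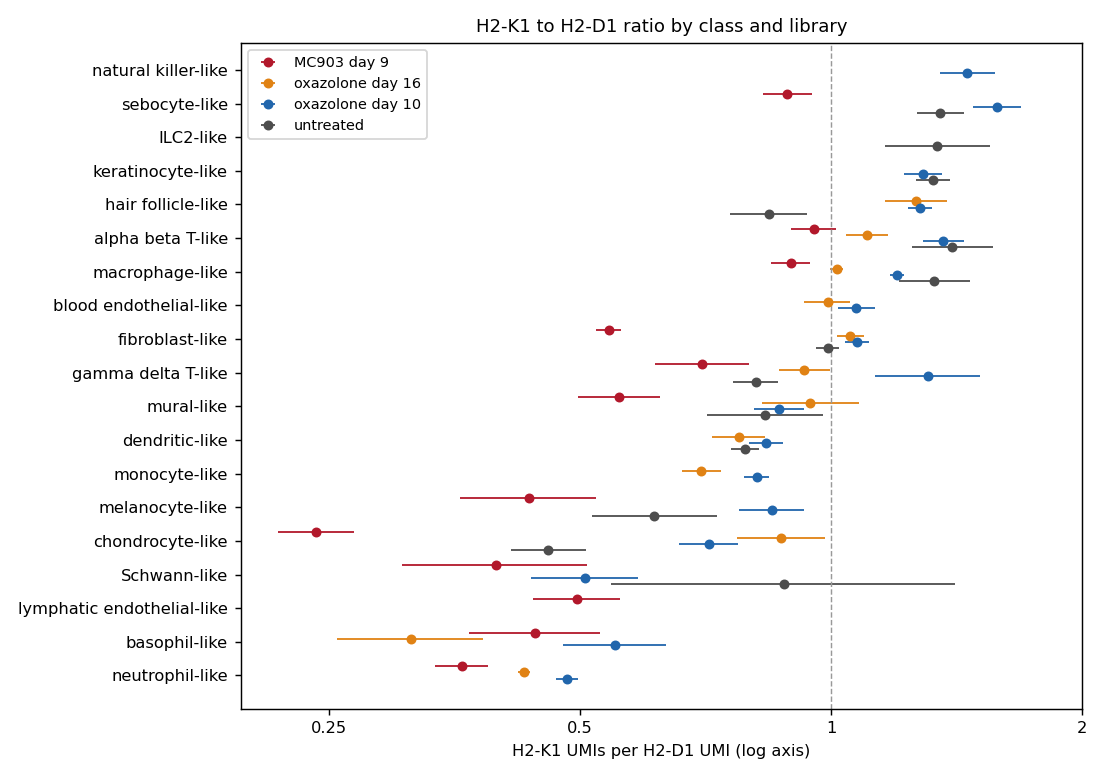
H2-K1 UMIs per H2-D1 UMI (log axis) in each class of at least 50 cells, 1 point per library with its 95% interval; the dashed line marks 1. MC903 points lie left of the untreated points in 9 of 9 classes, as in fibroblast-like cells (0.541 against 0.990).

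The class Ib genes are less polymorphic relatives of class I, and some of them, such as H2-M9, H2-M2 and H2-M5, had narrower places. H2-M9 was almost confined to mural-like cells, which held 151 of its 152 UMIs in MC903, 7 of 9 in day 16 oxazolone skin, 35 of 36 in day 10 oxazolone skin and 26 of 26 in untreated skin. Its level there was 50.8 CPM in MC903, 5.78 at day 16, 10.7 at day 10 and 12.3 in untreated skin, a log2 ratio of 2.05 (1.45 to 2.71) for MC903 over untreated skin. H2-M2 lay mainly in dendritic-like cells, at 26.3 CPM at day 16, 32.3 at day 10 and 71.7 in untreated skin, with 7.75 CPM in sebocyte-like and 4.03 CPM in keratinocyte-like cells of untreated skin. H2-M5 had 86.6% of its 351 UMIs of untreated skin in dendritic-like cells. H2-T24 stood in neutrophil-like cells at 27.4 CPM in MC903, 31.0 at day 16 and 27.5 at day 10. H2-T23 was above oxazolone day 10 at day 16, by any amount, in 12 of 12 classes compared (median log2 ratio 0.72), and past 2-fold in 2. H2-T22 was above untreated skin at day 10, by any amount, in 10 of 11 classes (median log2 ratio 0.96), and past 2-fold in 5. In mural-like cells H2-T22 was at 42.9 CPM at day 16, 44.5 at day 10 and 23.1 in untreated skin. By any amount, B2m, H2-K1 and Tapbp were likewise above untreated skin at day 10 in 11 of 12 classes and Tap1 in 10 of 11. No share over all genes is given for these counts. H2-M3, whose product presents formylated peptides, was at 20.8 CPM in MC903, 23.5 at oxazolone day 16, 53.8 at day 10 and 42.4 in untreated macrophage-like cells, a log2 ratio of -1.20 (-1.34 to -1.05) between day 16 and day 10.

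Across 54 pairs of class and library, Spearman's rho with the class II level was 0.775 for H2-DMa, 0.749 for Ciita, 0.677 for H2-DMb1, 0.606 for H2-DMb2, 0.565 for H2-Ob and 0.415 for H2-Oa. For Ctss it was 0.658, below its 0.697 with the class I level, and for H2-Oa too the class I value was higher, at 0.440. Among the peptide supply genes, rho with the class I level was 0.851 for Psmb8, 0.848 for Psmb9 and 0.843 for Tap1. It was 0.774 for Tap2, 0.686 for Tapbp and 0.685 for Psmb10, and 0.776 for the transactivator Nlrc5. These pairs share libraries and depth, so the values are descriptions. Of 15858 other genes, the 8 most like the class II level were Necap2 (0.803), Clec4a1 (0.761), Twf2 (0.743), Aif1 (0.734), Ms4a6c (0.731), Fam49b (0.729), Mob1a (0.719) and Prcp (0.719). The remaining members, H2-Oa, H2-Ob and H2-Eb2 among them, had 215 to 541 UMIs each for these 3 and too few per class for ratios in most classes. H2-Ke6 stood between 1.48 and 36.7 CPM over all classes of at least 50 cells.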

How the data were processed

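Single-cell RNA libraries (10x 3′ chemistry v3.1) of 4 groups were analysed as deposited count matrices: whole UMI counts per gene and cell barcode, made by the authors with Cell Ranger 7.2.0 (oxazolone day 10, untreated) or 8.0.0 (MC903, oxazolone day 16), per the file headers. The submitters' processing notes give Cell Ranger 8.0 and mm10. Barcodes with under 300 genes or over 15% mitochondrial UMIs were left out, and simulated-doublet scores per library removed 129 cells of MC903, 519 of oxazolone day 16, 578 of oxazolone day 10 and 478 of untreated skin. Cells were clustered without the member genes (scanpy 1.11.5, leidenalg 0.10.2; 2000 variable genes, 30 principal components, 15 neighbours, resolution 1.0) and named from fixed markers by thresholds set after the data were seen.

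UMIs were summed per class and library and given as CPM with exact Poisson intervals, ratios with conditional exact binomial intervals and shares with Clopper-Pearson intervals (scipy 1.17.1). A gene counts as higher or lower past 2-fold, where the gene reached 30 UMIs over both libraries, in classes of at least 50 cells in both. With 1 library per group there is no test. UMIs are 3′ counts, so the same gene is compared across classes; copies of the H2-Q region and H2-K1 with H2-D1 can share reads. Members with at least 1000 UMIs are described, and H2-M2, H2-M5, H2-M9, H2-Eb2, H2-Oa and H2-Ob, with fewer, are also named, by the ratio rule or after their values were seen. Ratios are named for 16 core members and, per class and comparison, the 3 other members with the largest ratio, and lists show at most 4 members. The members and lists were chosen with earlier results of these data known. Ratio scripts were tested on simulated data.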

Additional observations from a re-analysis of the deposited data

How the results depend on the processing

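Of 259 named ratios, 140 were past 2-fold; over 1059 values of these under the alternatives, 1047 kept their sign and 1005 stayed past 2-fold. With at least 100 UMIs in a pair, 6 of 11 class I members were at least 2-fold lower in mural-like cells of MC903 against oxazolone day 16, and over untreated skin 7 of 9 were higher at day 16 in mural-like, 7 of 8 at day 10 in melanocyte-like and 3 of 3 at day 10 in Schwann-like cells; fewer members pass that minimum. With the mean of per-cell CPM, 8 of 18 were higher at day 10 in fibroblast-like cells.
Without doublet removal, 13 of 14 were higher at day 10 in Schwann-like cells. The share of class II UMIs in dendritic-, macrophage- and monocyte-like cells was then 82.3% in MC903, 89.9% at day 16, 90.4% at day 10 and 76.1% in untreated skin, and the thinned share of macrophage-like cells with a class II UMI was 87.8% at day 10. Thinned to 2000 UMIs, that share was 58.3% in MC903, 62.0% at day 16, 90.7% at day 10 and 84.4% in untreated skin; unthinned it was 82.0%, 88.5%, 97.4% and 93.8%.
Within single clusters, an alternative chosen after seeing the data, 5 of 8 (Folr2 cluster) and 1 of 9 (Arg1 cluster) class II members were lower at day 16 than at day 10, and 11 of 17 (day 16) and 8 of 17 (day 10) class I members were higher than in untreated skin in the Cxcl5 fibroblast-like cluster. In the Lgr5 hair follicle-like cluster 11 of 15 (day 16) and 10 of 15 (day 10) were higher than in untreated skin, against 2 of 15 and 0 of 17 over the class; of neutrophil-like clusters at day 16 over day 10, the F10 cluster had 0 of 17, the Camp cluster 0 of 18 and the Prok2 cluster 1 of 16, against 5 of 18 over the class.
Some single ratios turned sign. After subtracting 5% free RNA, H2-Aa, H2-Ab1, H2-Eb1 and Cd74 were each at 0.81 in mural-like cells at day 16 and at 1.47 in sebocyte-like cells of MC903. Ctss was then at -0.63 in mural-like cells at day 10, all over untreated skin. Each of these values equals the log2 ratio of the class UMI totals, untreated over treated. That is what a count of 0 on both sides gives when each is set to 3 UMIs. They therefore give no direction for these genes. By per-cell CPM, H2-Eb1 in mural-like cells at day 16 was at 0.32. Without doublet removal, Cd74 in sebocyte-like cells at day 10 was at -0.98. Under the stricter cell filter, Cd74 in gamma delta T-like cells at day 10 was at 0.18. The cause of these last changes was not tested.
No paired analysis was possible because each group has 1 library, and for the same reason no replicate could be left out. Depth limits Ciita in most classes and the class Ib genes of the M region.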
